A study of Mus musculus with 6 samples.

Results

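The miR-3470 and miR-3473 names cover mouse miRNAs that were put forward as a group derived from short interspersed repeats (SINEs). A repeat origin was not shown here for every row of these names. Members were the rows of the tag count table whose identifier begins with mmu-miR-3470 or mmu-miR-3473, whatever the letter that follows. The rows put forward by name were mmu-miR-3470a, mmu-miR-3470b, mmu-miR-3473a, mmu-miR-3473b and mmu-miR-3473e, and the same rule also took in 5 others, so that there were 10 rows out of 1573 known mouse miRNA rows, 2 of miR-3470 and 8 of miR-3473. The rows were picked by name, but the family was put forward with the counts of its rows in the 6 libraries in view, so the contrast of the groups is described here and not tested for these rows.

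The libraries held small RNAs of primary peritubular myoid cells, the flat contractile cells around the seminiferous tubules, isolated from the testes of C57BL/6J mice and cultured with 10% fetal bovine serum. One group was left untreated (n = 3 libraries), and the other received 50 nM endothelin-1 (ET1), a peptide that contracts smooth muscle, for 5 min at 37 °C (n = 3 libraries). Neither the number and age of the mice nor whether each library came from a culture of its own was given in the sources used here.

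SINEs are mobile elements copied through an RNA intermediate and scattered in very large numbers over the genome. The mouse B1 element descends from 7SL RNA, the RNA of the signal recognition particle, and the elements of the B2 class descend from a tRNA. RNA polymerase III transcribes both, and both are also carried along inside introns and exons of longer transcripts. A miRNA acts through its seed, bases 2 to 8 counted from its 5′ end, which pairs with target mRNAs. The miR-3470 sequences lie within B1, and miR-3473b matches the start of B2-class elements, so a tag with one of these sequences can also be a fragment of repeat RNA.

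RefSeq (GRCm38.p6) held a mature sequence for 9 of the 10 rows. It held none for miR-3470a, which was therefore left out of all sequence comparisons below. The 9 sequences are shown 5′ to 3′ with the seed in capitals, because the seed sets which rows could share targets and the remaining bases set which rows a tag can be told apart from.

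miR-3470b: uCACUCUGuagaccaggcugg

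miR-3473a: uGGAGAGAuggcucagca

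miR-3473b: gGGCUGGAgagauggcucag

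miR-3473c: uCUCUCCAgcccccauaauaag

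miR-3473d: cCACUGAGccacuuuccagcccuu

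miR-3473e: gGGCUGGAgagauggcucgua

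miR-3473f: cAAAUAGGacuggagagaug

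miR-3473g: cAAAAGUGaggcuggggaga

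miR-3473h-5p: uAGGGGCUggaaaggugacu

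Only miR-3473b and miR-3473e had the same seed among these 9, and no other known miRNA row with a matched sequence had it. The seed of miR-3473d was shared with miR-1947-3p and miR-674-5p, and that of miR-3473c with miR-7649-3p. The seeds of the other 5 belonged to no other matched row. The name miR-3473 therefore joined rows with 7 different seeds.

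Beyond the seed, miR-3473a, miR-3473b and miR-3473e held a common run of 14 bases, shown in capitals here because it is the stretch in which tags of these 3 rows are alike.

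miR-3473a: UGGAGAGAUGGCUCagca

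miR-3473b: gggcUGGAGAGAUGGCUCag

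miR-3473e: gggcUGGAGAGAUGGCUCgua

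The first 18 bases of miR-3473b and miR-3473e were identical, and the rows differ only at the 3′ end. Of the 18 bases of miR-3473a, 16 lay inside miR-3473b. miR-3473c held a run of 12 bases that was the reverse complement of a stretch in miR-3473b and in miR-3473e, and miR-3473d and miR-3473h-5p were related in the same way over 11 bases, so the name also joined sequences that read in opposite directions. No run longer than 7 bases on the same strand linked miR-3470b to a miR-3473 row.

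The hairpin of Mir3473b is shown with both arms in capitals, because its arms are perfect copies of each other on opposite strands.

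Mir3473b: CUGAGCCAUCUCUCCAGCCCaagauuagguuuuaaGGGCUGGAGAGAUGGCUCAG

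Its 55 bases (GRCm38, chr10:41670739-41670793, plus strand) hold 2 inverted copies of the 20 bases of the mature miRNA around a loop of 15 bases. In the other miR-3473 hairpins the longest stretch complementary to the mature miRNA ran from 5 to 12 bases.

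Each miRNA has an annotated gene of its own, in places with no common neighbour. On GRCm38, in GENCODE M21, introns of protein-coding genes on the same strand hold Mir3473a (Syap1, chrX:162874918-162874995), Mir3473d (Ddx19b, chr8:111016450-111016530), Mir3473e (Rbks, chr5:31667231-31667340), Mir3473f (Bcl2, chr1:106546496-106546631) and Mir3473g (Sppl2a, chr2:126902250-126902385), all on the minus strand. Gm51275, the gene of miR-3473h, lies in an intron of Gm43191 (chr3:116667557-116667617, minus strand). Mir3473c overlaps an exon of Traf5 (chr1:191998554-191998634, minus strand). Mir3473b and Mir3470b (chr16:44013852-44013977, plus strand) lie opposite to introns of Ccdc162 and Gramd1c, and Mir3470a (chr6:83090311-83090387, minus strand) overlaps no other gene.

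The repeat origin showed clearly in 3 of the sequences. The exact sequence of miR-3470b was found, on either strand, in transcripts of 1016 of the 53248 genes scanned in GENCODE M21 (miRNA genes left out), that of miR-3473b in 726 and that of miR-3473a in 281. The sequences of miR-3473c, d, e, f, g and h-5p were found in none. Among the 514 tested miRNA rows with a sequence, 354 were found in no such gene, and miR-3470b, miR-3473b and miR-3473a were the 3 rows found in at least 10 genes. Of 32851 promoter windows of 300 bases, 32 (0.0974%) held the miR-3473b sequence on either strand, 10 (0.0304%) that of miR-3470b and 9 (0.0274%) that of miR-3473a. Only exact matches over the full length were counted, so copies that differ in any base were missed. A row without a match is therefore not shown to lie outside repeats. A genome sequence was not used here, so copies in introns and between genes were not counted.

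Depth and composition set the frame for all values below. Total depth was 18127265 to 20895432 tags per library. Known miRNAs took 4381927 to 8651018 of these tags. Known miRNAs made up 22.6% to 25.5% of the tags in ET1 libraries and 30.1% to 45.6% in untreated libraries, and fragments of rRNA 7.12% to 11.0% and 3.22% to 5.63%. Levels are CPM, counts per 1000000 known miRNA tags with TMM scaling. Its factors were 0.82 to 0.96 for the untreated group and 1.08 to 1.18 for the ET1 group. A tag stands for 1 small RNA from end to end, so no correction for length was needed to compare rows. Of the fixed markers, the smooth muscle miRNA miR-143-3p was the most abundant at a mean of 17145 CPM and miR-145a-5p stood at 2524 CPM, against 54.3 CPM for the epithelial miR-200b-3p, 56.2 CPM for the germ cell miR-34c-5p, 147.6 CPM for the lymphocyte miR-150-5p, 227 CPM for the red cell miR-451a and 866 CPM for the endothelial miR-126a-3p. Groups did not overlap for miR-143-3p, miR-126a-3p and miR-150-5p, all lower in ET1 libraries, and overlapped for the other markers. Over all tested miRNAs, groups did not overlap for 23.5%, in either direction. The mean with ET1 was 131 CPM for miR-126a-3p, against 1602 CPM without it. It was 24.7 against 270 CPM for miR-150-5p, and 11789 against 22501 CPM for miR-143-3p. In these bulk libraries fewer cells of a type and less RNA per cell cannot be told apart. The part of cell composition or of the miRNA and rRNA shares in the values below was not tested.

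The 10 rows held 9897 tags in the 6 libraries together. miR-3473b held 52.97% of them, miR-3473d 20.7%, miR-3473e 11.5%, miR-3470b 5.05%, miR-3470a 3.98%, miR-3473g 3.73% and miR-3473a 1.88%. These 7 rows passed the expression filter. The other 3 did not: miR-3473h-5p had 25 tags in all, miR-3473f had 2, and miR-3473c had 0, which at 3 counts per library allows up to 0.347 to 0.685 per 1000000 known miRNA tags. By mean CPM, miR-3473b ranked 156 of 616 tested miRNAs and miR-3473a 463, and the median of all tested miRNAs was 22.5 CPM.

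Of the 7 tested rows, 0 were called in the fit over all known miRNAs (edgeR adjusted p under 0.05), where 1.79% of tested miRNAs were (1.3% higher and 0.487% lower in ET1 libraries), and 0 had an unadjusted p under 0.05, as 113 of the 616 did. DESeq2 called 0 of the 5 rows to which it gave an adjusted p, and 39 of the 609 known miRNAs to which it gave one. Because the rows were put forward with this contrast known, nothing is read from these counts. The log2 fold change of ET1 over untreated libraries was above 0 for 6 of the 7, with a median of 0.59, and for 311 of all 616, with a median of 0.0058.

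**Figure D1:**
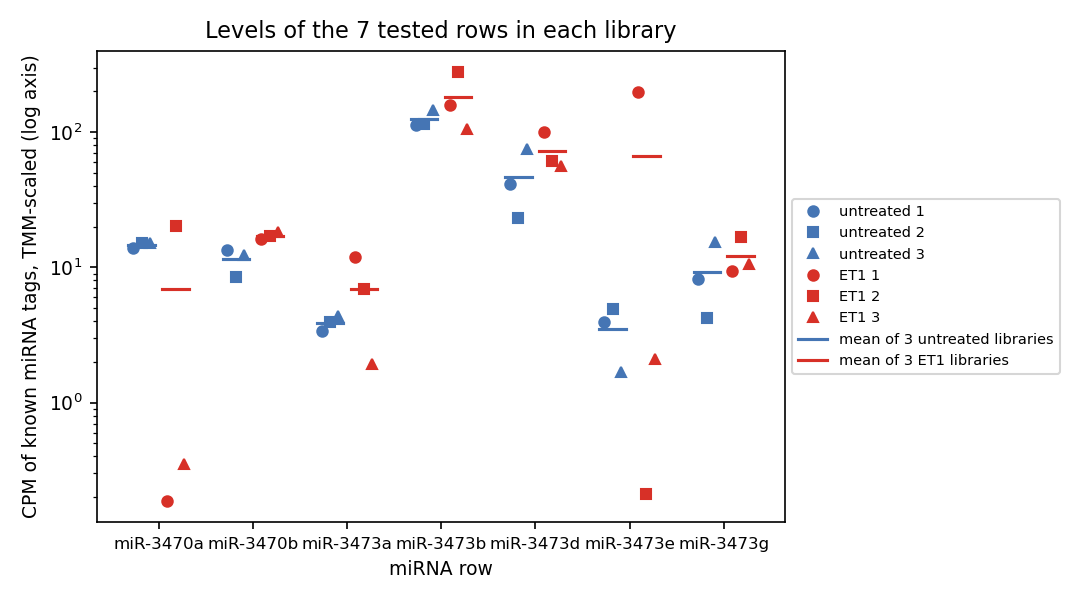
Level of each tested row in each library, in TMM-scaled CPM on a log axis, with bars at the mean of the 3 libraries of a group. miR-3470a is low in ET1 libraries 1 and 3, miR-3473e is high in ET1 library 1 alone, and the libraries of the other 5 rows are spread less widely.

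miR-3473b, the row with the sequence of the start of the repeat, was the most abundant member in every library but one. It had 797, 812 and 875 tags without ET1 and 841, 1312 and 605 with it, or 112, 115 and 147 CPM against 158, 277 and 106 CPM. Both the highest and the lowest level belonged to ET1 libraries, and the groups overlapped. The mean was 180.5 ± 87.7 CPM with ET1 and 124.7 ± 19.2 CPM without it (SD, n = 3 each), for a log2 fold change of 0.53 (SE 0.43). Without ET1 library 2, the highest, it was 0.063, and without ET1 library 3, the lowest, 0.81.

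miR-3473e, which shares its seed and first 18 bases with miR-3473b, was spread in another way. It had 28, 35 and 10 tags without ET1 and 1048, 1 and 12 with it. At 196.9 CPM in ET1 library 1 it exceeded miR-3473b there, whereas in the other 5 libraries it lay between 0.21 and 4.96 CPM. ET1 library 1 is high, ET1 library 2 is the lowest of all, and ET1 library 3 lies within the untreated range. The group means were 66.4 ± 113 CPM and 3.53 ± 1.68 CPM (SD, n = 3 each), so that the ET1 mean rested on a single library. The log2 fold change was 4.22 (SE 2.52) with all libraries and -1.59 without ET1 library 1. The authors' deposited table holds the same 1061 tags for the ET1 group and 73 for the untreated group.

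Of the tags of both rows, miR-3473e made up 55.5% in ET1 library 1 (exact Clopper-Pearson 95% interval 53.2% to 57.7%, counting error only). In the other libraries it made up 0.0762% to 4.13%, with the highest upper bound at 5.70%. The 841 miR-3473b tags of ET1 library 1 lay between those of ET1 libraries 2 and 3. How tags that match both rows were assigned is not given in the sources used here, and its part in this share was not tested. The sum of both rows was 825, 847 and 885 tags in untreated and 1889, 1313 and 617 tags in ET1 libraries.

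**Figure D2:**
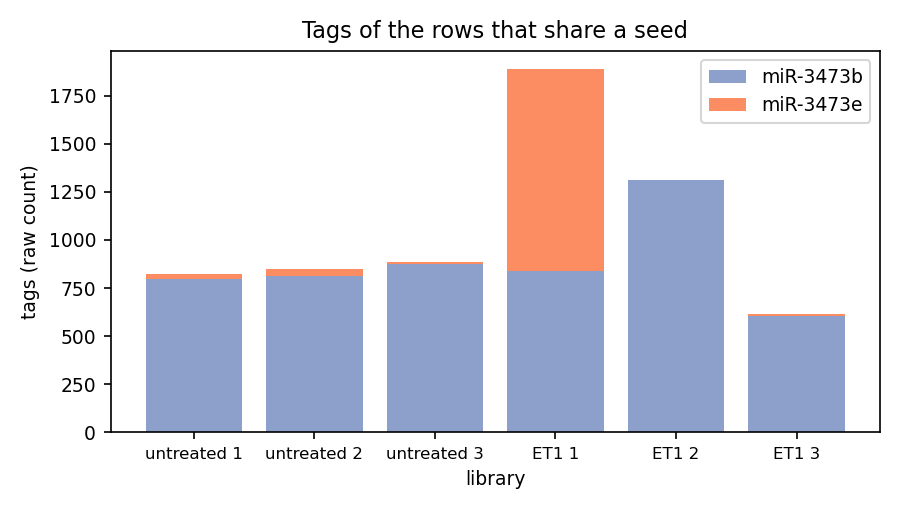
Raw tag counts of miR-3473b and miR-3473e, stacked, in each library. The miR-3473e part is 1048 tags in ET1 library 1 and 1 to 35 tags in each of the others, while miR-3473b runs from 605 to 1312 tags.

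A single library holding most of a row was rare among the tested miRNAs. ET1 library 1 held 93.9% of the CPM of miR-3473e summed over the 6 libraries, 93.5 times the median of the other 5. Over all 616 tested miRNAs the highest library held a median of 27.3%, with the central 90 percent of rows between 20.8% and 41.8%. One row lay above miR-3473e, miR-3074-5p, of which untreated library 1 held 96.0%. For the other 6 tested members the highest library held 21.3% to 36.8%. The highest of these was miR-3473a, with 69 of the 616 rows, itself included, at or above its share.

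**Figure D3:**
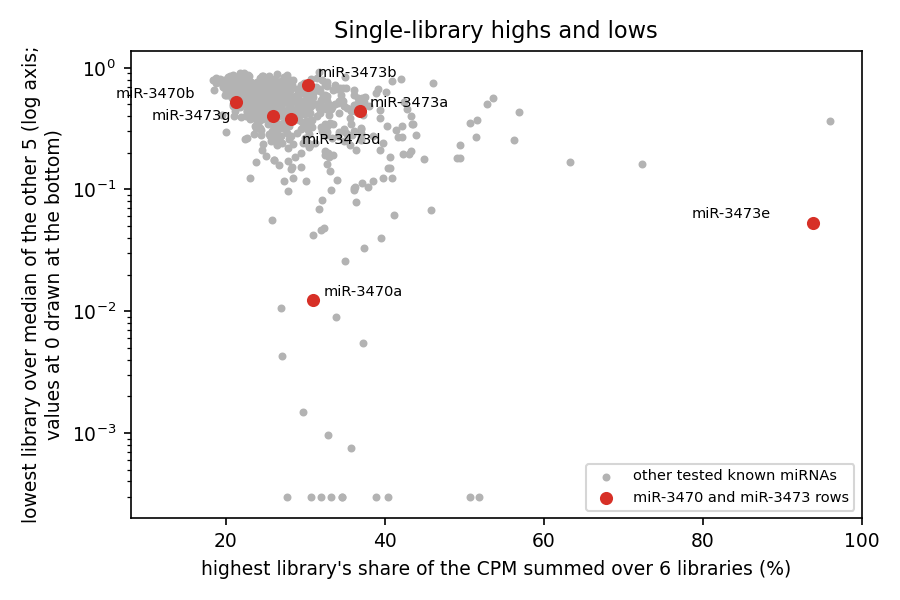
For each of the 616 tested miRNAs, the share of its summed CPM in its highest library (horizontal) and its lowest library relative to the median of the other 5 (vertical, log axis). miR-3473e stands at 93.9% on the horizontal axis and miR-3470a at 0.012 on the vertical axis, while the other 5 members lie among the bulk of rows.

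miR-3470a, one of the pair of B1-derived rows, was low in 2 libraries where miR-3473e was high in 1. It had 99, 107 and 90 tags in the untreated libraries and 1, 95 and 2 tags in the ET1 libraries, or 13.96, 15.2 and 15.1 CPM against 0.19, 20.1 and 0.35 CPM. ET1 library 2 is the highest of all, and ET1 libraries 1 and 3 are near 0. The log2 fold change was -1.11 (SE 1.61). Without ET1 library 2 it was -5.69, and the row would then have been called lower (edgeR adjusted p = 0.00071). Without ET1 library 1 it was -0.55, and without ET1 library 3 it was -0.52. Over all fits but that without ET1 library 2 it ran from -3.09 to -0.52, none of them called.

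The deposited tables differed on this row. In the authors' deposited table the pooled ET1 count of miR-3470a is 269, whereas the 3 ET1 libraries sum to 98, a gap of 171 tags, and the pooled untreated count of 296 equals the sum. With the pooled counts the log2 ratio of ET1 over untreated was -0.14, and with the authors' mean RPM of 4.71 and 4.91 it was -0.060, against -1.59 for the summed library counts. The 2 deposited values for the ET1 group therefore differ, and which of them is right was not tested.

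miR-3470a was 1 of 16 rows in which both tables gave counts and differed, among 1366 rows compared. In 14 of the 16 the pooled count was the higher and a library of that group held at most 4 tags. No other member row was among them. The tested miRNA with the profile nearest to that of miR-3470a, by the root mean square difference of centred log2(CPM + 1) over the 6 libraries, was miR-328-5p (0.73 log2 units). It is another of the 16, with 1, 55 and 2 tags in the same ET1 libraries against a pooled 282. Of the 616 tested miRNAs, 34 had a library at or below 0.1 of the median of the other 5. Of the 13 tested rows in which the tables differed, 12 were among these 34.

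miR-3470b, the other B1-derived row and the one found in the most genes among the 9 members with a sequence, had the most even levels of the 7. It had 95, 60 and 74 tags in the untreated and 86, 81 and 104 tags in the ET1 libraries, or 13.4, 8.50 and 12.4 CPM against 16.2, 17.1 and 18.3 CPM. Its groups did not overlap, as was so for 23.5% of all tested miRNAs after TMM scaling. The mean was 17.2 ± 1.05 CPM with ET1 and 11.4 ± 2.59 CPM without it (SD, n = 3 each), with a log2 fold change of 0.59 (SE 0.43). Per 1000000 tags of all rows, ET1 libraries ranged from 4.17 to 5.34 and untreated libraries from 3.16 to 4.55, and the groups overlapped.

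The sequence of miR-3473d shares runs with other members on the opposite strand and had no exact match in the transcripts scanned. This row had 295, 164 and 446 tags in untreated and 535, 287 and 318 tags in ET1 libraries. In CPM these were 41.6, 23.2 and 74.8 against 100.5, 60.6 and 55.8. Untreated library 3 lay above ET1 libraries 2 and 3, so the groups overlapped, and the log2 fold change was 0.64 (SE 0.50). Without untreated library 3 it was 1.17, without untreated library 2 it was 0.31, and without ET1 library 1 it was 0.32.

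miR-3473a, nearly contained in miR-3473b, had 24, 28 and 26 tags in untreated and 64, 33 and 11 tags in ET1 libraries. Untreated libraries lay close together at 3.38, 3.96 and 4.36 CPM. ET1 libraries lay on both sides of them, at 12.02, 6.97 and 1.93 CPM. The log2 fold change was 0.83 (SE 0.59), with 0.17 once ET1 library 1 was left out and 1.27 once ET1 library 3 was.

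miR-3473g had 58, 30 and 92 tags in untreated and 50, 79 and 60 tags in ET1 libraries, or 8.18, 4.25 and 15.4 CPM against 9.39, 16.7 and 10.5 CPM. All ET1 libraries but one lay within the untreated range, and the log2 fold change was 0.40 (SE 0.52). Leaving out untreated library 3 gave 0.98, leaving out untreated library 2 gave 0.045, and 0.093 was left once ET1 library 2 was dropped. miR-3473h-5p was counted 3, 5 and 5 times in untreated and 0, 10 and 2 times in ET1 libraries.

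The members did not vary as a unit. In CPM, miR-3473a, miR-3473d and miR-3473e were highest in ET1 library 1, miR-3470a, miR-3473b and miR-3473g in ET1 library 2, and miR-3470b in ET1 library 3. This order depended on the scale: by raw count and per 1000000 tags of all rows or of the repeat row, miR-3470a was highest in untreated library 2 and miR-3473g in untreated library 3, and per 1000000 tags of the repeat row miR-3470b was highest in untreated library 1. The lowest library in CPM was untreated library 2 for miR-3470b, miR-3473d and miR-3473g, ET1 library 3 for miR-3473a and miR-3473b, ET1 library 1 for miR-3470a and ET1 library 2 for miR-3473e. No member was among the 3 nearest profiles of another member. For miR-3473b these were miR-466i-5p (0.11 log2 units), miR-6952-3p and miR-574-5p. For miR-3470b they were miR-744-3p, miR-5128 (0.11 log2 units for both) and miR-667-5p. They were miR-3057-5p (0.22), miR-7031-5p and miR-7654-5p for miR-3473d, and miR-1934-3p (0.21), miR-7658-5p and miR-7016-5p for miR-3473g. For miR-3473a they were miR-99a-3p (0.39), miR-148b-3p and miR-494-3p. No profile came near that of miR-3473e: the nearest, miR-871-3p, was 1.41 log2 units away, followed by miR-218-5p and miR-193a-3p. After miR-328-5p, miR-3470a was followed by miR-465b-5p (0.91) and miR-744-5p.

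The table holds 1 row of Type repeat, the authors' total of tags assigned to repeats. It held 18.4%, 15.8% and 20.4% of all tags without ET1 and 22.2%, 21.6% and 24.2% with it. Every ET1 library was above every untreated library, so the libraries fall into 2 sets on this share and no correlation over the 6 was computed. The 10 rows together had 1399, 1242 and 1619 tags in untreated and 2625, 1898 and 1114 tags in ET1 libraries, a small number beside the 3003052 to 4725208 tags of the repeat row.

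Summed over the 10 rows, the level was 197, 176 and 272 CPM in untreated and 493, 401 and 195.5 CPM in ET1 libraries. ET1 library 3, with the largest repeat share of all, was lower than 2 of the 3 untreated libraries. Within the untreated group, the library with the largest repeat share also had the highest summed level and the one with the smallest share the lowest. Within the ET1 group, the library with the largest share had the lowest level. The summed level thus did not follow the repeat row across all libraries, and the library out of order was ET1 library 3. Without miR-3470a and miR-3473e, ET1 libraries 1 and 2 also changed places, at 296 and 381 CPM. The level is scaled to known miRNA tags, whereas the share is of the tags of all rows.

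Per 1000000 tags of the repeat row, the 10 rows stood at 363, 414 and 383 in untreated and 651, 453 and 236 in ET1 libraries. Leaving out miR-3473e, high in 1 library, and miR-3470a, low in 2, the other 8 stood at 330.2, 366 and 359.8 in untreated and 391, 429.7 and 233 in ET1 libraries. Their means were then 351 ± 104 in ET1 and 352 ± 19.3 in untreated libraries (SD, n = 3 each; rows left out after their values were seen). On this scale all 3 untreated libraries lay inside the ET1 range. In CPM the same 8 rows stood at 290 ± 94.0 against 196.7 ± 51.8, with overlap.

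**Figure D4:**
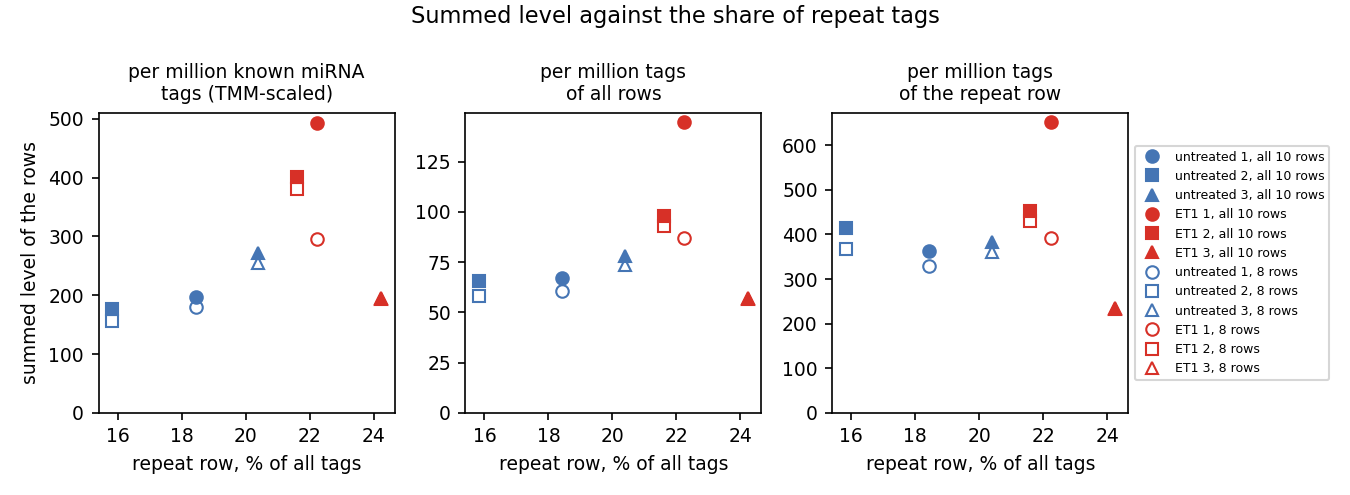
Summed level of all 10 rows (filled) and of the 8 rows without miR-3470a and miR-3473e (open) against the share of tags in the repeat row, on 3 scales from 0. The highest filled point in each panel is ET1 library 1, which holds the 1048 miR-3473e tags, and ET1 library 3 has the largest repeat share with a level near or below the untreated libraries.

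The scale moved all fold changes together. Scaled to the repeat row, the median of all tested miRNAs was -0.59, and with library sizes of known miRNA tags alone it was 0.37. The 7 members moved with it. Their median was 0.012 and 0.94 on these scales, and lay 0.61 and 0.57 above that of all tested miRNAs, against 0.58 with TMM. Leaving out libraries moved this distance more: it was 0.27 without ET1 library 1, 0.35 without untreated library 2, 0.77 without untreated library 3 and 0.81 without ET1 library 3. On the scale of the repeat row 4 of 7 were above 0, and miR-3473b and miR-3473g changed sign, to -0.076 and -0.096. Relative to the median of all tested miRNAs both stayed above it, by 0.52 and 0.50. A change of scale moves all rows nearly alike, so nothing is read from their staying above it.

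**Figure D5:**
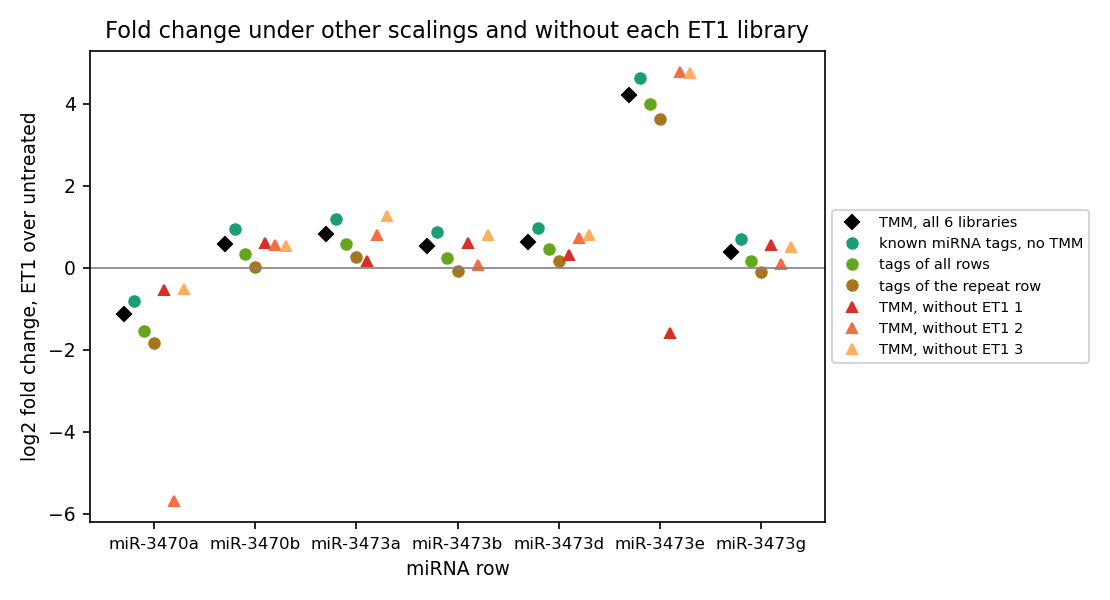
Log2 fold change of ET1 over untreated libraries for the 7 tested rows, with TMM scaling and all libraries (diamonds), on 3 other scales (circles) and without each ET1 library (triangles). miR-3473e falls from 4.22 to -1.59 without ET1 library 1 and miR-3470a from -1.11 to -5.69 without ET1 library 2, while the other rows stay between -0.096 and 1.27 in the settings drawn.

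Summed by family, the miR-3470 rows stood at 27.4, 23.6 and 27.5 CPM in untreated and 16.3, 37.2 and 18.6 CPM in ET1 libraries, a log2 ratio of the means of -0.12. The miR-3473 rows stood at 170, 152 and 244 CPM and at 477, 364 and 177 CPM, a log2 ratio of 0.85. Groups overlapped in both families. The log2 ratio of the miR-3473 rows was 0.51 without ET1 library 1, and that of the miR-3470 rows, which rests on the miR-3470a counts in which the tables differ, ran from -0.61 without ET1 library 2 to 0.078 without ET1 library 1.

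The RNA classes from which the repeats descend have rows of their own. The Rfam row of the metazoan signal recognition particle RNA, the ancestor of B1, held 59.3, 116 and 139 per 1000000 tags of all rows in untreated libraries and 102, 93.1 and 146 in ET1 libraries. The tRNA row held 217, 443 and 297 against 374, 241 and 323. It is the row of the class to which the ancestor of B2 belongs, and does not show that tRNA by itself. In both rows the groups overlapped, and neither row was highest in the library that held the miR-3473e tags.

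Outside the family, 1 of the known miRNAs with a matched sequence shared a run of at least 12 bases with a member. This was miR-7667-5p, over 12 bases on the strand opposite to miR-3473e, with 6, 2 and 15 tags in untreated and 10, 3 and 7 tags in ET1 libraries. Its count in ET1 library 1 was within the range of the other libraries. miR-1195, another miRNA of B1 origin, shared a run of 8 bases with the opposite strand of miR-3470b and fell short of this length.

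The authors' deposited table listed all 7 tested rows as up in ET1, with q-values from 0 (as listed, miR-3473e) to 2.0e-06 (miR-3470a). It also listed as up miR-3473h-5p, with 13 pooled tags in untreated and 12 in ET1 libraries, and miR-3473f, with 2 and 0. The share of all its rows listed as up was not counted here, so nothing is read from this direction. Its log2 ratios were 0.56 for miR-3470a, 0.94 for miR-3470b, 1.17 for miR-3473a, 0.85 for miR-3473b, 1.03 for miR-3473d, 4.56 for miR-3473e and 0.77 for miR-3473g. The log2 ratio of the same table's pooled counts minus its listed log2 ratio was -0.70 in each of the 7 tested rows. Its median over all known miRNA rows compared was also -0.70, so this offset was not particular to the members. Pooling leaves out how far libraries of a group lie apart, which for miR-3473e in the ET1 group was 1, 12 and 1048 tags.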

How the data were processed

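Small RNA tags were counted in 3 untreated and 3 ET1 libraries. Per the submitters' processing notes the tools include Bowtie2 and the build is mm10. How tags that match several loci or rows were assigned is not given in the sources used here. The authors deposited tag counts for 61628 rows and a value headed TPM, which is an RPM: the count per 1000000 tags of all rows (ratio 0.9981 to 1.0032 for counts of at least 50). A second table the authors deposited, of 1800 rows, holds pooled counts, mean RPM, log2 ratios, p-values and q-values, with no settings. RPM values were not tested.

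Known miRNA rows were fitted with edgeR 4.0.16 in R 4.3.3 (TMM, default filter, robust quasi-likelihood, group as the only term, two-sided, Benjamini-Hochberg, threshold 0.05), which kept 616 rows; the pipeline was tested on simulated data. DESeq2 1.42.0 and other scalings, filters and left-out libraries were alternatives. No library was a copy of another of its group (chi-square over degrees of freedom 336 to 1212). Pairs across the groups were not compared in this way. No source says that libraries are separate cultures, so p-values may reflect technical spread alone.

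Sequences and their positions are from RefSeq (GRCm38.p6), gene context and transcripts from GENCODE M21. A sequence was found for 1340 of 1573 known rows. The members, lists and alternatives were chosen with earlier results of these data known. Named were every member row, the rows sharing at least 12 bases with one, the 3 nearest profiles of each tested member, the repeat, 7SL and tRNA rows and 7 markers; other names (miR-3074-5p, seed partners) were chosen after their values were seen.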

Additional observations from a re-analysis of the deposited data

How the results depend on the processing

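None of the tested miR-3470 and miR-3473 rows was called under the other scalings, filters, DESeq2 or the replicate block; without 1 library the count ran from 0 to 1, the 1 being miR-3470a without ET1 library 2. The number of known miRNAs called, 11, was 41 with library sizes alone, 37 with no filter, 39 with the DESeq2 test and 21 with the replicate block, and ran from 2 to 30 without 1 library. The summed miR-3470 log2 ratio, -0.12, was -0.75 scaled to the repeat row and 0.22 with library sizes alone. Without 1 library it ran from -0.61 to 0.078. That of miR-3473, 0.85, ran from 0.51 to 1.15 without 1 library. It was 0.30 scaled to the repeat row and 1.18 with library sizes alone. The cause was not tested. Rows sharing a run with a member numbered 15 at 10 bases and 0 at 14 bases, in place of 1. At least 3 matching genes, a setting chosen after seeing the data, were met by 6 tested rows in place of 3, and at least 100 genes by the same 3 members. Genomic copies were not counted, since no genome sequence was used here.

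Same-numbered libraries deviated together with r = 0.29, 0.069 and 0.28, against -0.25 to -0.00031 for the other pairs, so each library was nearest to its own number. Deviations from a group mean cancel within the group, so values of the other pairs are not independent of those of same-numbered pairs. The labels do not say that a shared number marks a shared culture or animal, and the main fit therefore had no replicate block. With the replicate block miR-3470a was at -3.09 and miR-3473e at 0.83. Rows of under 100 tags per library carry the largest counting error.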
